A study of Mus musculus with 35 samples.

Results

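The effect of losing PGC-1α on muscle RNA in young adult mice was measured by comparing 5 knockout libraries with 6 wildtype libraries at 3 months of age, 11 of the 35 libraries of the study. Each library was RNA-seq of bulk gastrocnemius, the large calf muscle, of male mice, and the series text calls the samples of a group biological replicates. The study also holds PGC-1α transgenic muscle, labelled mTG, and all 3 genotypes at 24 months. The knockout is labelled mKO and the wildtype WT. The labels give no promoter or Cre driver, no deleted exon, no strain and no treatment for either group. Table columns starting with MKO_ and lacking the letters SO were taken as mKO at 3 months, since there are 5 of them, as the labels list 5 such samples, and those starting with WT_ as WT at 3 months. Values are TPM (the share of transcript molecules assigned to a gene, with a fixed total per library), divided by a scale factor per library and called scaled TPM here. Levels of different genes can be compared, since TPM accounts for transcript length. Differences are on the log2(scaled TPM + 1) scale, mKO minus WT, which understates the change of genes with few transcripts.

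The product of Ppargc1a, PGC-1α, coactivates transcription: it binds no DNA itself and works through partner factors such as the estrogen-related receptors (ERR), the PPAR nuclear receptors and the nuclear respiratory factors. In skeletal muscle it is known as a regulator of genes for mitochondrial respiration, fat oxidation and the oxidative fibre phenotype, and its level rises with endurance exercise. ERRα, encoded by Esrra, is both a partner and a target, and the pair drive one another's expression.

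The mKO libraries were unlike one another, and this bears on every result below. Scale factors were 1.18 to 1.29 in WT, 1.23 to 1.498 in mKO other than MKO_3259 and 1.04 in MKO_3259. MKO_3259 stood apart on the first principal component, which held 34.6% of the variance, at 58.0 against -12.7 to 5.6 for the other 10 libraries. The difference of its levels from the WT mean fell with transcript length (Spearman rho -0.545, against -0.317 to 0.190 in the other 10). This was taken across the 10876 nuclear protein-coding genes tested. In MKO_3259 10724 genes reached 1 TPM, against 11257 to 11855 in the others. Of all 12399 genes tested, 29.4% of MKO_3259 values lay within the range of the 6 WT libraries. That share was 72.5% in MKO_3251, the library nearest to WT, and 58.2%, 59.2% and 60.5% in MKO_3247, MKO_3248 and MKO_3265. The depth of the libraries is unknown, since TPM keep no read counts. The labels name no batch. Below, mKO values are always given in the order MKO_3247, MKO_3248, MKO_3251, MKO_3259, MKO_3265, and WT values as the lowest, the median and the highest of 6.

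At 3 months 222 genes were higher (1.79%) and 406 lower (3.27%) in mKO, together 5.06% of 12399 tested, at an adjusted p under 0.05 (limma, Benjamini-Hochberg adjustment, with 1 spread per gene shared by all 6 groups of the study). When each of the 11 libraries was left out in turn, 78 genes remained higher (0.629%) and 193 remained lower (1.56%) in all 11 fits, and no called gene changed sign in any of them. The number called ran from 123 to 462 higher and from 249 to 690 lower. Counts moved by over 1.5 times without MKO_3251 (462 and 690), without MKO_3247 (123 and 249), and, for higher genes, without MKO_3259 (128), WT_2 (146) or WT_4 (138). With the spread taken from the 11 libraries alone, 12 genes were higher (0.0968%) and 9 lower (0.0726%), while 1798 had an unadjusted p under 0.05. The calls of the 35-library fit thus rest on a spread estimated with the other 4 groups, and a fit of the 17 libraries of 3 months gave 91 higher and 195 lower. On unscaled TPM the split turned, to 377 higher (3.04%) and 227 lower (1.83%), with the median of all genes at 0.04 against -0.0043 on scaled TPM. All 5 mKO libraries lay above all 6 WT libraries for 152 genes (1.23%) and below them for 130 (1.05%).

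**Figure D1:**
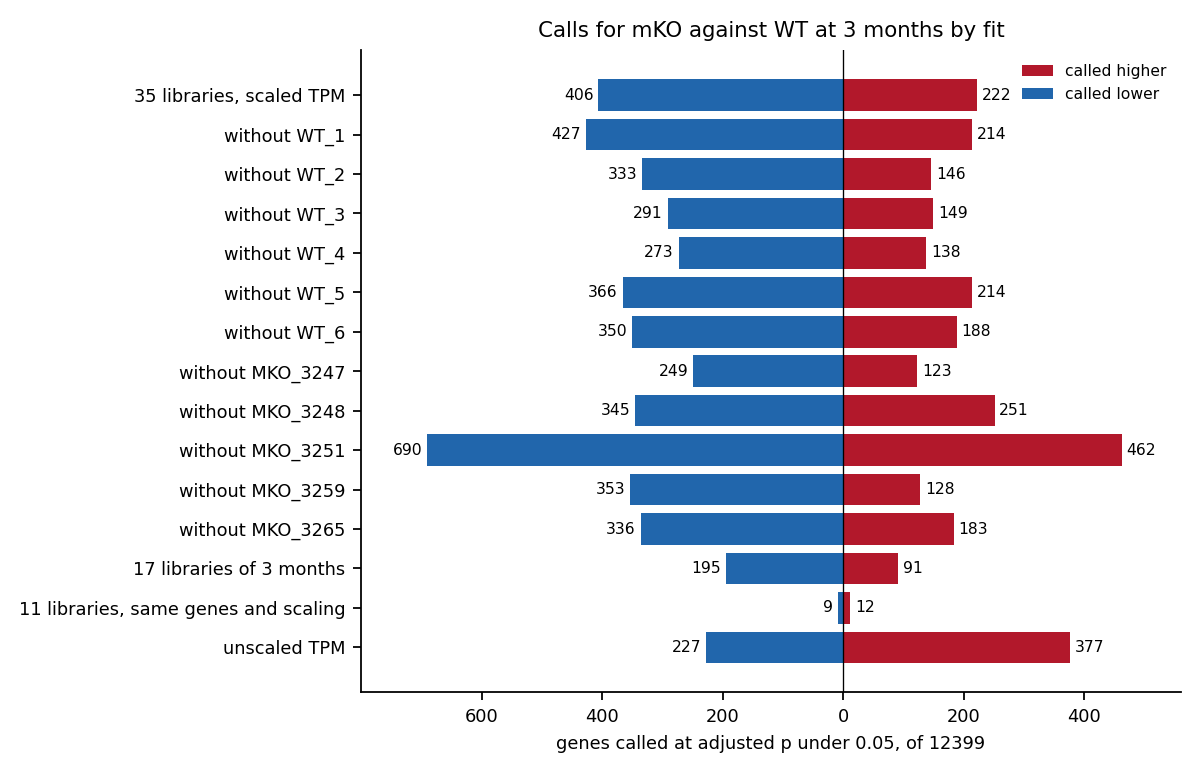
Genes called higher (right) and lower (left) in mKO against WT at 3 months, of 12399 tested, one pair of bars per fit. Leaving out MKO_3251 gives the longest bars, 462 and 690, and a fit of the 11 libraries alone gives 12 and 9.

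Ppargc1a itself did not mark the knockout in this table. WT libraries held 4.82, 6.99 and 15.2 scaled TPM and mKO libraries 7.51, 10.5, 4.44, 5.01 and 8.79, so the groups overlapped throughout. The difference was -0.10 (exact permutation test, p = 0.76, 0.851 after adjustment over 3 single values; smallest p possible 0.00216). The gene lies at chr5:51454250-51567726 (GRCm38), and a gene-level value sums all its transcripts, so it cannot show whether some exons are missing. At 24 months Ppargc1a was higher in the libraries labelled mKO than in WT, by 0.80 ± 0.19 (limma, adjusted p = 0.00244), and in mTG at 3 months it stood 3.67 ± 0.19 above WT (limma, adjusted p = 1.51e-16). The gene thus checks the mTG label but not the mKO label.

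**Figure D2:**
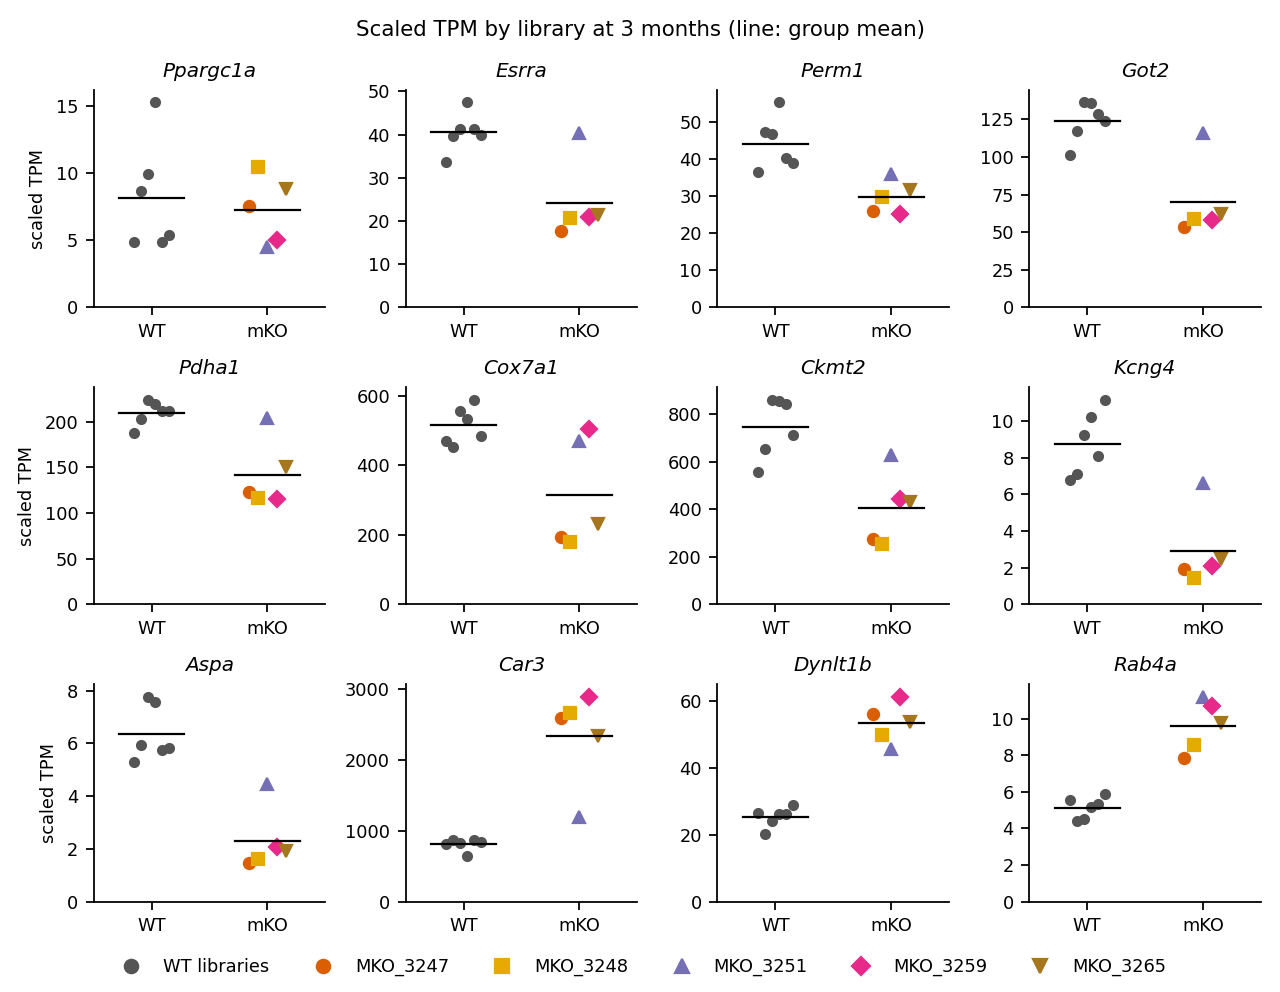
Scaled TPM of 12 genes in each library, with grey points for the 6 WT libraries, a symbol per mKO library and a line at each group mean; every axis starts at 0. Ppargc1a overlaps throughout, and MKO_3251 lies near WT for Esrra, Got2, Pdha1, Cox7a1 and Kcng4 but with the other mKO libraries for Rab4a.

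Among 25 genes of the PGC-1 family and its partners, 4 were lower and none higher, a median of -0.15. Over all genes 3.27% were lower and 1.79% higher. The largest fall was in Esrra (chr19:6910977-6921813), the gene of ERRα. It stood at 33.6, 40.5 and 47.4 scaled TPM in WT and at 17.7, 20.6, 40.4, 21.0 and 21.5 in mKO. The library MKO_3251 sat inside the WT range and the other 4 well under it. Esrra fell by 0.77 ± 0.12 (SE) on the log2 scale (limma, adjusted p = 0.00015) and stayed called without any 1 of the 11 libraries, though not in the fit of 11 libraries alone (adjusted p = 0.107). Perm1, a muscle regulator downstream of PGC-1α and the ERRs, held 36.3, 43.3 and 55.2 in WT and 26.0, 29.6, 36.0, 25.2 and 31.5 in mKO. All 5 mKO libraries were below all 6 WT libraries, a difference of -0.55 ± 0.10 (limma, adjusted p = 0.000987). Esrrb, the gene of ERRβ, was scarce, at 0.700, 1.18 and 1.61 in WT and 0.416, 0.686, 0.749, 0.362 and 0.520 in mKO (-0.47 ± 0.10, limma adjusted p = 0.00437). Sirt3, the main mitochondrial deacetylase, held 8.30, 9.12 and 10.9 in WT and 4.27, 4.78, 9.11, 7.40 and 6.47 in mKO (-0.52 ± 0.13, limma adjusted p = 0.0122). Its call was lost in 1 of the 11 fits. Ppara, the gene of the fat-sensing receptor PPARα, came nearest among the rest at -0.70 ± 0.24 (limma, adjusted p = 0.0799). The homologous coactivators Ppargc1b (0.01) and Pprc1 (0.25), the mitochondrial transcription factor Tfam (-0.10), Nrf1 (0.03) and Gabpa (-0.15) were not called (limma, adjusted p of 0.233 or more).

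The tricarboxylic acid cycle, which oxidises acetyl-CoA, and pyruvate dehydrogenase, which supplies it, held the largest share of falls among the mitochondrial lists of 10 or more genes. Of 27 genes 15 were lower and none higher, with a median of -0.33 beside -0.0043 over all genes, and 11 of the 15 stayed lower in all 11 fits. The shares over all genes were 3.27% lower and 1.56% lower in all 11 fits. Got2, the mitochondrial aspartate aminotransferase of the malate-aspartate shuttle, ran from 101, 126 and 136 in WT to 53.2, 59.0, 116, 58.2 and 61.8 in mKO. Again MKO_3251 was inside the WT range and the other 4 were between 53.2 and 61.8. Got2 changed by -0.88 ± 0.12 (limma, adjusted p = 2.07e-05). Pdha1, the catalytic subunit of pyruvate dehydrogenase, stood at 187, 212 and 224 in WT and 123, 116, 204, 116 and 150.03 in mKO (-0.59 ± 0.09, limma adjusted p = 0.000133). Citrate synthase, Cs, the entry enzyme of the cycle, held 185, 218 and 223 in WT and 135, 139, 210.1, 99.2 and 138 in mKO (-0.60 ± 0.11, limma adjusted p = 0.000833). Dlst, a subunit of the oxoglutarate dehydrogenase complex, held 63.3, 75.7 and 80.0 and 48.7, 47.2, 71.2, 54.7 and 55.5 (-0.43 ± 0.08, limma adjusted p = 0.000704). For these 4 genes MKO_3251 stayed within WT while MKO_3259 fell with the remaining 3. Dlat, Ogdh, Mdh2 and Idh3a, further enzymes of the same route, also fell, by 0.33 to 0.68, and stayed called in all 11 fits. Over the list, values below all 6 WT libraries were found for 24, 22, 0, 16 and 23 of the 27 genes in the 5 mKO libraries. The shares over all genes were 22.0%, 22.0%, 13.2%, 34.8% and 20.0%. Without MKO_3259 the list had 17 lower and a median of -0.36. None of its members was called in the fit of 11 libraries alone, where 17 were lower at an unadjusted p under 0.05 beside 8.08% of all genes.

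The nuclear genes of the respiratory chain moved less evenly. Of 82 subunits of complexes I to V, 12 were lower and none higher, with a median of -0.19, and 4 stayed lower in all 11 fits. Over all genes 3.27% were lower and 1.56% held in all 11 fits. The counts per complex, and those for mitochondrial DNA below, are to be read beside these shares. Without MKO_3259 the count was 29 and the median -0.35, and with quantile normalization the count was 39 and the median -0.22. Over all 12399 genes those fits called 353 and 483 lower. In the fit of 11 libraries alone 0 of the 82 were called. There 16 were lower at an unadjusted p under 0.05, beside 8.08% of all genes. Complex II, succinate dehydrogenase, which also serves the tricarboxylic acid cycle, was lower in 4 of 4 subunits. Complex II had 3 that stayed lower in all 11 fits and 3 that were lower on unscaled TPM. Its catalytic subunit Sdha held 242, 251 and 280.4 scaled TPM in WT and 185, 182, 244, 187 and 179 in mKO (-0.39 ± 0.08, limma adjusted p = 0.00187). Sdhb, its iron-sulfur subunit, held 222, 274 and 296 in WT and 172, 163, 252, 266 and 186 in mKO (-0.39 ± 0.11, limma adjusted p = 0.0275), with both MKO_3251 and MKO_3259 in the WT range. Sdhb was called in 5 of the 11 fits. In complex III with cytochrome c 3 of 10 genes were lower. The core subunit Uqcrc1 changed most (-0.44 ± 0.12, limma adjusted p = 0.0289) and was called in 4 of the 11 fits. Uqcrc2, the other core subunit, was called in all 11, at 204, 259.6 and 279 in WT and 175, 181, 222, 188 and 192 in mKO (-0.39 ± 0.07, limma adjusted p = 0.000704). Complex IV, cytochrome c oxidase, had 1 lower gene of 15, Cox7a1, the heart and muscle isoform of subunit VIIa. It stood at 455, 511 and 589.8 in WT and 195, 180.4, 470.2, 504 and 231 in mKO. The libraries MKO_3247, MKO_3248 and MKO_3265 held 180.4 to 231, and MKO_3251 and MKO_3259 lay inside the WT range. The difference was -0.84 ± 0.20 (limma, adjusted p = 0.0102), and the call was lost in 1 of the 11 fits. Complex V, the ATP synthase, had 2 lower genes of 17, Atp5g3 (-0.44 ± 0.11, limma adjusted p = 0.0152) and Atp5c1 (-0.32 ± 0.09, limma adjusted p = 0.0309). Atp5g3 was called in 9 and Atp5c1 in 5 of the 11 fits. Complex I, NADH dehydrogenase, had 2 lower of 36, Ndufs1 (-0.29) and Ndufa8 (-0.46), each called in 5 of the 11 fits. The complex I median was -0.16, and the count was 9 without MKO_3259 and 18 with quantile normalization.

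Library by library the respiratory chain showed 3 levels. The mean over the 82 subunits, relative to the WT mean, was -0.46, -0.52, -0.04, 0.41 and -0.40 in the mKO libraries and -0.11 to 0.13 in WT. Values below all 6 WT libraries were found for 75, 79, 5, 5 and 74 of the 82 genes, and in MKO_3259 64 were above all 6. Over all 12399 genes 22.0%, 22.0%, 13.2%, 34.8% and 20.0% of values were below the WT range, and 35.8% of MKO_3259 values were above it. With each library's trend on transcript length removed, the MKO_3259 mean was 0.08. Then 34 of the 82 genes were lower, with a median of -0.26, beside 521 of all 12399. Not every list behaved so. With the trend removed MKO_3259 still lay above WT for complex I alone (0.17), the mitochondrial ribosome (0.28) and the cytosolic ribosome (0.64). For the mitochondrial DNA genes it stood at -1.09, against -0.72 with the trend kept. For the 82 genes together, that trend and the MKO_3259 values moved together, and its part in them was not tested.

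**Figure D3:**
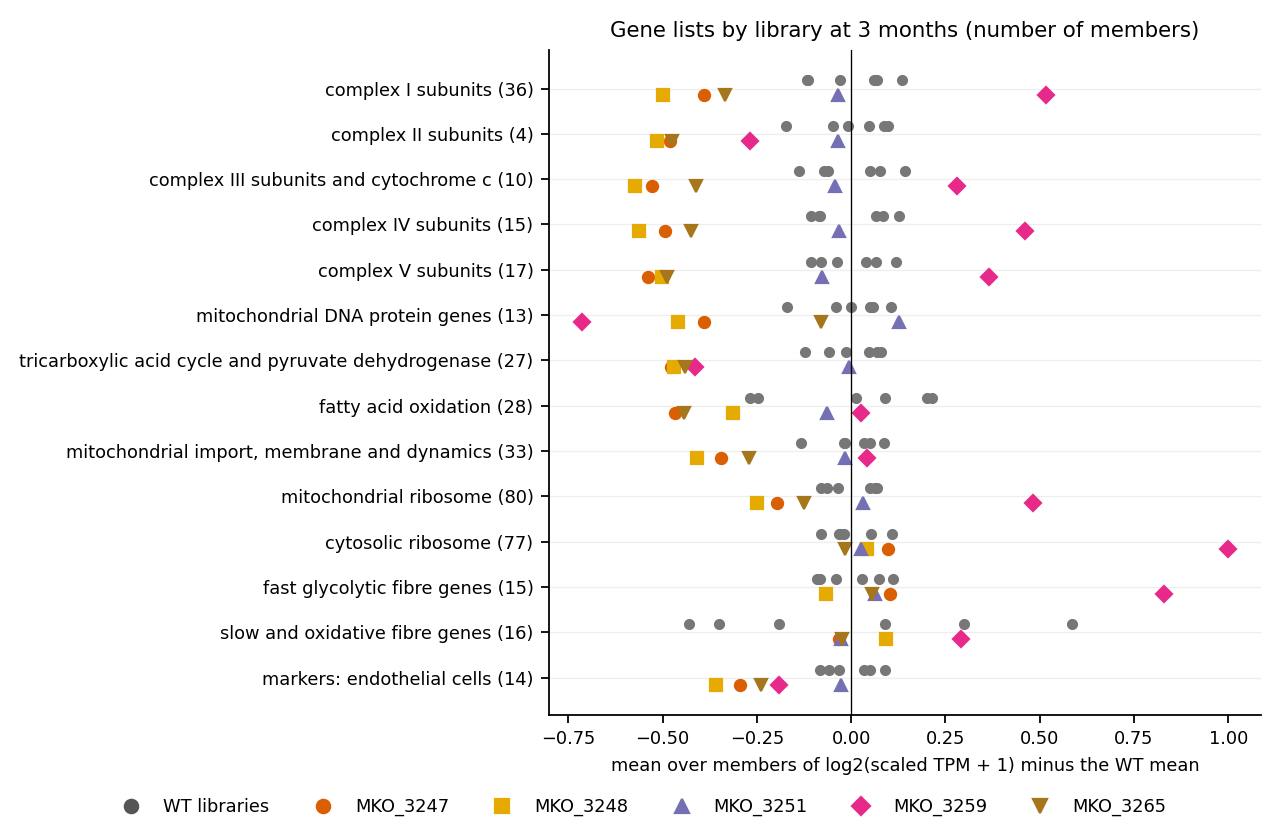
Mean over the members of each list of log2(scaled TPM + 1) minus the WT mean, with grey points for WT libraries and a symbol for each mKO library (number of members in parentheses). MKO_3247, MKO_3248 and MKO_3265 lie left of WT for complexes I to V, MKO_3251 lies within WT, and MKO_3259 lies right of WT for complexes I, III, IV and V and both ribosomes, furthest for the cytosolic one, and left of WT for complex II, the mitochondrial DNA genes and the tricarboxylic acid cycle.

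The promoters of Sdhd, the membrane anchor of complex II, and Atp5g3, which encodes subunit c of the ATP synthase ring, hold the element of the ERR receptors and are shown because these receptors are a DNA-binding side of the PGC-1α pathway. The element, TNAAGGTCA, was searched on both strands of the RefSeq windows from 250 bases before to 50 after each gene's start (GRCm38.p6). Capitals mark the match, which in both is on the strand opposite to the gene and so reads TGACCTTNA. It lies before the RefSeq start in Atp5g3 and after it in Sdhd. The windows are chr2:73911277-73911576 for Atp5g3 and chr9:50603800-50604099 for Sdhd, both on the minus strand, and each is written 5′ to 3′ along the gene.
Atp5g3: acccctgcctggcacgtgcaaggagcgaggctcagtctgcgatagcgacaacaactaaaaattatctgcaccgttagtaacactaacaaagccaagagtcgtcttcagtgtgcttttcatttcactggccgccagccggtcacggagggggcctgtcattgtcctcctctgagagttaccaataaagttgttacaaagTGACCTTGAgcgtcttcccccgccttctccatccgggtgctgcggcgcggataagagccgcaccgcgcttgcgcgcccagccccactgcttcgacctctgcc
Sdhd: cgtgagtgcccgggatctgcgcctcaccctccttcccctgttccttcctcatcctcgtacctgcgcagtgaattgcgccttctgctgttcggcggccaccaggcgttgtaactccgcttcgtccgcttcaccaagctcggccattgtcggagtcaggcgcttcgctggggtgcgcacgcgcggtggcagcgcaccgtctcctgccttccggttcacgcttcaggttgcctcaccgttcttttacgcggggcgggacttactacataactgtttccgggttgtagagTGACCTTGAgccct

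Sdhd held 129, 144 and 159 scaled TPM in WT and 106, 99.8, 144, 124 and 103 in mKO (-0.32 ± 0.08, limma adjusted p = 0.00826), and Atp5g3 608, 769 and 832 and 424, 466, 709.6, 699 and 493. For Sdhd the call held in all 11 fits. Of the 33 lower genes in the respiratory chain, tricarboxylic acid and fat oxidation lists, 27 had a window, and 2 of these genes held the element. Of all tested genes of these lists 113 had a window, and 3 held the element. Over all genes with a window it was found for 387 of 27025 (1.43%). Counted by window, it was in 1.28% of all 32851. A match is a run of letters and was not tested for binding; a window with no match says only that these letters are not in it.

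The 13 protein genes of mitochondrial DNA, which encode further subunits of complexes I, III, IV and V, were lower for 3 and higher for none, with a median of -0.36. None of the 3 stayed lower in all 11 fits, and 0 of the 13 were called on unscaled TPM or without MKO_3259. Their summed share of all TPM was 24.4%, 26.9% and 28.4% in WT and 21.2%, 22.4%, 27.6%, 15.2% and 25.9% in mKO, so that the groups overlapped. The difference was -4.13 percentage points (exact permutation test, p = 0.0584, 0.175 after adjustment over 3 single values). On the log2 of the summed scaled TPM the difference was -0.32 (exact permutation test, p = 0.039, not adjusted). The share difference was -2.30 points without MKO_3259 and -5.41 without MKO_3251 (exact permutation tests, p = 0.152 and 0.0143). mt-Co1, a catalytic subunit of cytochrome c oxidase, held 30107, 33375 and 34536 scaled TPM in WT and 23757, 23104, 32352, 14454 and 25765 in mKO (-0.49 ± 0.14, limma adjusted p = 0.0379). The lowest value was in MKO_3259, the library with the highest mean over nuclear subunits. The mean over the 13 genes was -0.72 in that library, where the nuclear subunits stood at 0.41.

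Fat oxidation was lower in 6 of 28 genes and higher in none, with a median of -0.27, and 2 of the 6 stayed lower in all 11 fits. Over all genes 3.27% were lower and 1.56% stayed so, and the counts of the lists that follow are to be read beside these shares. In the fit of 11 libraries alone 0 of the 28 were called. The same held for the ketone body, import, coenzyme Q, antioxidant and endothelial lists below. Acadl, the long-chain acyl-CoA dehydrogenase, held 113, 141 and 173 scaled TPM in WT and 75.5, 93.5, 128, 91.5 and 95.2 in mKO (-0.55 ± 0.11, limma adjusted p = 0.00335). Cpt1b, the muscle carnitine palmitoyltransferase that admits fatty acids to mitochondria, held 73.4, 88.4 and 104 and 62.3, 67.6, 88.3, 60.8 and 53.8 (-0.39 ± 0.10, limma adjusted p = 0.0152). WT libraries themselves ranged widely on this list, from -0.27 to 0.21 about their mean, against -0.47, -0.31, -0.06, 0.03 and -0.44 in mKO. Ketone body and branched-chain amino acid breakdown was lower in 7 of 20 genes, or 3 on unscaled TPM. Auh, a hydratase of leucine breakdown, was below WT in all 5 mKO libraries, at 19.6, 22.3 and 24.3 in WT and 11.8, 12.1, 17, 19.4 and 10.3 in mKO (-0.65 ± 0.11, limma adjusted p = 0.000409). It was the only one of the 7 to stay lower in all 11 fits. Bdh1 (-0.76) and Oxct1 (-0.56), which interconvert and activate ketone bodies, were also lower.

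Import, membrane and dynamics genes were lower for 9 of 33, of which 7 held in all 11 fits, and for 15 with quantile normalization. That normalization called 483 of all 12399 genes lower. Ckmt2, the mitochondrial creatine kinase that passes ATP's phosphate to creatine, stood at 555, 776 and 861 scaled TPM in WT and 274, 252, 626, 444 and 429 in mKO. It showed the steepest fall of the mitochondrial genes named here that were called, -0.94 ± 0.15 (limma, adjusted p = 0.00015). Slc25a5, an ADP/ATP carrier, was below WT in every mKO library, 26.0, 28.5 and 36.6 against 18.8, 19.1, 22.8, 20.7 and 20.3 (-0.52 ± 0.10, limma adjusted p = 0.000987). Slc25a12, the aspartate-glutamate carrier of the same shuttle as Got2, fell by 0.63 ± 0.14 (limma, adjusted p = 0.00539) with no overlap. Mfn1, a mitofusin of the outer membrane, Chchd10, a cristae protein, and Slc25a11, the oxoglutarate carrier, changed by -0.60, -0.59 and -0.48.

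Coenzyme Q, heme and iron-sulfur synthesis had 7 lower and 1 higher of 26, of which 2 and 0 held in all 11 fits, and 3 were lower on unscaled TPM. Coq9, needed for ubiquinone synthesis, held 129.6, 154 and 161 in WT and 90.3, 94.4, 135, 124 and 106 in mKO (-0.46 ± 0.08, limma adjusted p = 0.000534). Alas1, the rate-limiting enzyme of heme synthesis, changed by -0.55 ± 0.12 (limma, adjusted p = 0.00397). Ppox, a late heme enzyme, was the member that rose (0.31 ± 0.08, limma adjusted p = 0.0197), with every mKO library above WT. Sod2, the mitochondrial superoxide dismutase, held 111, 134 and 143 in WT and 71.5, 71.2, 129, 84.5 and 80.1 in mKO (-0.60 ± 0.10, limma adjusted p = 0.000361). Of the 20 antioxidant genes it belongs to, Prdx3 and Txnrd1 were lower as well and Gsr and Nqo1 higher. Of these 4 only Prdx3 was called in all 11 fits, and on unscaled TPM Prdx3 and Txnrd1 were not called.

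The mitochondrial ribosome, which makes the proteins of mitochondrial DNA, differed between the mKO libraries. Of 80 mitochondrial ribosome subunits 0 were called (limma), and 4 were lower and 0 higher at an unadjusted p under 0.05 in the fit of 11 libraries, beside 8.08% lower and 6.42% higher of all genes. The median was -0.02, or -0.14 with 8 lower without MKO_3259. Values below all 6 WT libraries were found for 48, 59, 10, 5 and 33 of the 80 genes in the 5 mKO libraries, beside 22.0%, 22.0%, 13.2%, 34.8% and 20.0% of all genes. MKO_3259 lay above all WT libraries for 70 of the 80, beside 35.8% of all genes. The mean over the 80 genes was -0.20, -0.25, 0.03, 0.48 and -0.13, so that MKO_3247, MKO_3248 and MKO_3265 were under the WT range of -0.08 to 0.07 and MKO_3259 was over it. Of the 77 cytosolic ribosome subunits MKO_3259 lay above WT for 76, beside the same 35.8%. Their median was 0.23, or 0.05 without it, and 0 were called, or 17 higher with quantile normalization and 3 on unscaled TPM. Those settings called 369 and 377 of all 12399 genes higher. Of 40 translation factors and tRNA enzymes 5 were lower and 1, Kars, whose product also serves the cytosol, higher, while on unscaled TPM 1 was lower. Gfm1, the mitochondrial elongation factor G, held 40.2, 43.5 and 48.2 in WT and 23.5, 24.7, 42.8, 18.2 and 33.0 in mKO (-0.65 ± 0.15, limma adjusted p = 0.00659). Qrsl1, a subunit of the mitochondrial amidotransferase that makes glutaminyl-tRNA, was below WT in all 5 libraries, 8.69, 10.2 and 11.1 against 7.23, 6.83, 7.99, 6.37 and 7.72 (-0.42 ± 0.09, limma adjusted p = 0.00625). Lrpprc, which stabilises mitochondrial mRNA, and Taco1, an activator of mt-Co1 translation, fell by 0.34 and 0.35.

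**Figure D4:**
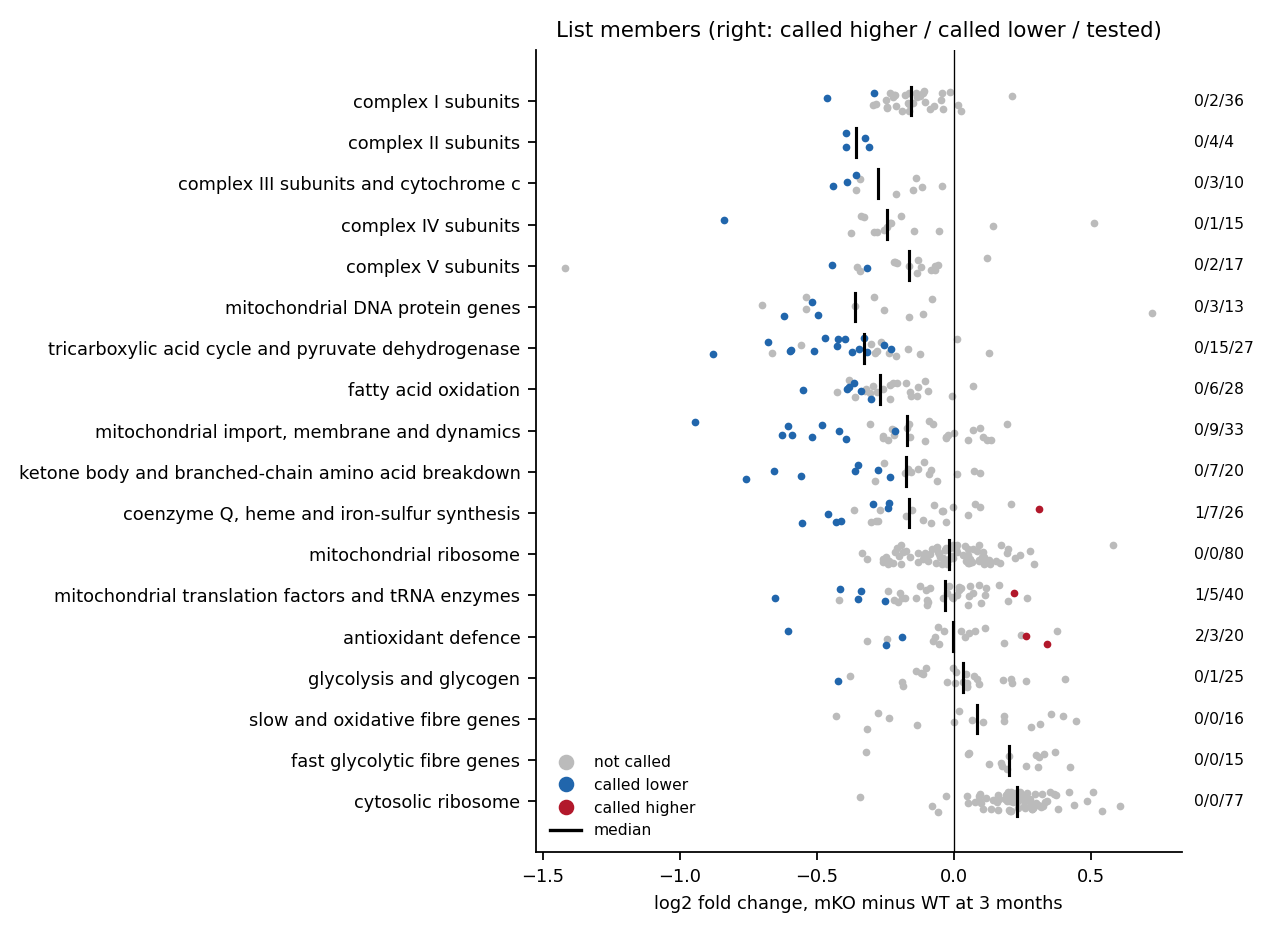
Log2 fold change of every tested member of 18 lists, mKO minus WT at 3 months, coloured by call, with the median as a bar and the counts called higher, called lower and tested at the right. The tricarboxylic acid list has 15 blue points of 27, and the cytosolic ribosome, at a median of 0.23, has none called.

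The 12 largest falls without overlap of the groups ran from -1.43 to -0.63, and 12 of 12 stayed called in all 11 fits. They were picked from the same libraries for being called with no overlap, which favoured this in advance. Of all lower calls 47.5% held. Kcng4 (chr8:119623854-119635680), a modifier subunit of voltage-gated potassium channels, led with 6.80, 8.65 and 11.2 scaled TPM in WT and 1.95, 1.45, 6.64, 2.10 and 2.45 in mKO. The other 4 lay between 1.45 and 2.45, and MKO_3251 was just under the lowest WT library. The difference was -1.43 ± 0.16 (limma, adjusted p = 1.72e-06). Aspa (chr11:73304992-73329596), aspartoacylase, which splits N-acetylaspartate into acetate and aspartate, held 5.29, 5.88 and 7.77 in WT and 1.47, 1.63, 4.45, 2.05 and 1.91 in mKO (-1.21 ± 0.13, limma adjusted p = 1.23e-06). Both genes had MKO_3251 as the highest mKO library, and this held for 9 of the 12 falls.

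Nsun4 methylates mitochondrial ribosomal RNA and held 8.48, 10.8 and 12.9 in WT and 5.61, 5.08, 7.17, 4.97 and 6.01 in mKO (-0.79 ± 0.14, limma adjusted p = 0.000704). Lyrm7, an assembly factor of complex III, held 6.57, 8.51 and 9.12 and 4.61, 1.77, 6.19, 4.12 and 4.95 (-0.86 ± 0.20, limma adjusted p = 0.00706). Nsun4 and Aspa were the falls also called in the fit of 11 libraries alone, at adjusted p = 0.0419 and 0.0458 (limma). Nceh1, a cholesterol ester hydrolase, went from 4.09, 5.10 and 6.87 to 1.49, 2.55, 3.86, 1.84 and 2.44 (-0.89 ± 0.14, limma adjusted p = 0.000133). Gnb5, a G protein beta subunit, changed by -0.79, Efcab6, an EF-hand protein, by -0.93, and Trp53inp2, which promotes autophagy, by -0.65. Slco3a1, an organic anion transporter, Adamtsl5, a matrix protein, and Tcim changed by -0.63, -0.73 and -0.69.

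The 12 largest rises without overlap of the groups ran from 0.50 to 1.47, and 9 of them stayed called in all 11 fits. The rises were picked in the same way as the falls, and of all higher calls 35.1% held. Car3 (chr3:14863512-14872523), carbonic anhydrase III, which hydrates carbon dioxide in muscle and fat, held 645, 833 and 865 scaled TPM in WT and 2584, 2653, 1188, 2887 and 2336 in mKO. The other 4 ran from 2336 to 2887, and MKO_3251 was between them and WT. The difference was 1.47 ± 0.16 (limma, adjusted p = 9.65e-07). MKO_3251 was the mKO library nearest to WT in 7 of the 12 rises.

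Rab4a, a GTPase of endosomal recycling, held 4.39, 5.26 and 5.89 in WT and 7.87, 8.57, 11.2, 10.7 and 9.77 in mKO, with MKO_3251 the highest (0.79 ± 0.14, limma adjusted p = 0.000529). Dynlt1b, a dynein light chain, held 20.1, 26.1 and 29.0 in WT and 56.1, 49.8, 45.5, 61.2 and 53.8 in mKO (1.04 ± 0.10, limma adjusted p = 8.44e-08). It belongs to a family of near-identical copies, so reads may have been split among them. Vrk2, a kinase, held 2.03, 2.52 and 3.09 and 6.02, 3.61, 4.51, 4.98 and 4.24 (0.68 ± 0.16, limma adjusted p = 0.0076).

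Ift122, of the cilium transport machinery, changed by 0.81 ± 0.14 and Arvcf, a catenin of cell junctions, by 0.70 ± 0.15 (limma, adjusted p = 0.000409 and 0.00397). Tnnt2, the cardiac troponin T that muscle makes in development, stood at 1.96, 2.64 and 3.39 in WT and 4.41, 5.24, 4.02, 7.10 and 3.99 in mKO (0.69 ± 0.16, limma adjusted p = 0.00842). Anapc4, a subunit of the anaphase-promoting complex, was even in 4 libraries and higher in MKO_3259, 20.1, 19.9, 19.9, 34.0 and 19.2 against 14.7, 15.1 and 15.8 in WT. Rhbdl1 (0.76), Rbm3, an RNA-binding protein induced by cold (0.54), and Srpk3, a muscle kinase of splicing factors (0.50), were called in 8, 10 and 7 of the 11 fits. Of the 12 rises 8 were called in the fit of 11 libraries alone, at adjusted p of 0.00453 to 0.0474 (limma).

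Fibre-type genes were not called (limma). The 16 slow and oxidative genes had 0 called and a median of 0.09, and the 15 fast glycolytic genes 0 called and a median of 0.20, or 0.06 without MKO_3259. On unscaled TPM 1 of each list was higher, and with quantile normalization 0 slow and 3 fast genes. Those settings called 377 and 369 of all 12399 genes higher. In the fit of 11 libraries 0 slow genes and 0 fast genes were lower and 1 and 0 were higher at an unadjusted p under 0.05. By that measure 8.08% of all genes were lower and 6.42% higher. Myoglobin, Mb, the oxygen store of oxidative fibres, held 1575, 2278 and 2631 scaled TPM in WT and 1162, 1151, 1985, 2214 and 1591 in mKO (-0.43 ± 0.17, limma adjusted p = 0.145). Myh2, the fast oxidative IIa myosin, ran from 235, 435 and 493 in WT to 252, 307, 359, 299 and 308 in mKO (-0.32 ± 0.17, limma adjusted p = 0.305). The WT libraries spanned more on the slow list, from -0.43 to 0.59 about their mean, than the mKO libraries, from -0.03 to 0.29.

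Glucose handling had 1 lower gene of 25, near the 3.27% of all genes: Slc16a1, the monocarboxylate transporter MCT1 that carries lactate. It held 6.66, 7.67 and 8.76 in WT and 4.51, 4.66, 6.79, 6.17 and 5.63 in mKO (-0.42 ± 0.09, limma adjusted p = 0.00437). Slc2a4, the insulin-regulated glucose transporter GLUT4, was below all 6 WT libraries in all 5 mKO libraries but by little, 125, 130.4 and 131 against 121, 113, 123, 113 and 116 (-0.14 ± 0.06, limma adjusted p = 0.195).

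Among 16 angiogenic and secreted factors 3 were lower. Fndc5, the precursor of irisin, held 18.1, 29.0 and 34.5 in WT and 10.4, 10.9, 24.3, 20.2 and 10.2 in mKO (-0.91 ± 0.16, limma adjusted p = 0.000681). Metrnl, the secreted factor meteorin-like, was below WT in all 5 libraries, 3.26, 3.51 and 5.06 against 1.62, 2.28, 2.34, 2.86 and 2.24 (-0.58 ± 0.12, limma adjusted p = 0.00359). Vegfb, a vascular growth factor, changed by -0.50 ± 0.12 and the angiogenic Vegfa by -0.49 ± 0.17 (limma, adjusted p = 0.0107 and 0.0909), so that Vegfb was called and Vegfa was not.

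Other programmes gave few calls. Of 21 atrophy and autophagy genes 1 rose, Sqstm1, an autophagy receptor (0.25 ± 0.08, limma adjusted p = 0.0497), and of 15 stress-response genes 1 fell, the mitochondrial chaperonin Hspd1 (-0.20). Cry2, a clock repressor, rose by 0.32 among 17 clock genes, and Timp2, an inhibitor of matrix proteases, by 0.28 among 25 matrix genes. None of these 4 held in all 11 fits: Sqstm1 was called in 3, Hspd1 in 3, Cry2 in 8 and Timp2 in 7, and Hspd1 was not called on unscaled TPM. In the lists for the neuromuscular junction (20 genes), interferon response (21), heat shock (16), immediate early genes (16) and glucocorticoid response (11) 0 were called (limma). At an unadjusted p under 0.05 in the fit of 11 libraries, these lists had 3, 1, 3, 1 and 0 lower members and 0 higher. Over all genes 8.08% were lower and 6.42% higher by that measure.

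The levels were those of muscle. The 15 muscle identity genes summed to 42950 to 46320 scaled TPM in WT and to 44720 to 48860 in mKO other than MKO_3259, which held 74990. In bulk tissue, fewer cells of a type and less RNA per cell cannot be told apart. Endothelial markers were lower for 3 of 14 (Tie1, Eng and Kdr) with a median of -0.25, and only Tie1 was lower in all 11 fits. On unscaled TPM 0 of the 14 were called. Tie1, a receptor of vessel lining, held 5.28, 5.84 and 6.39 in WT and 4.12, 4.82, 5.29, 4.61 and 4.90 in mKO (-0.26 ± 0.06, limma adjusted p = 0.00451). The 14 summed to 161 to 199.5 scaled TPM in WT and to 140.6, 138, 178, 168 and 145 in mKO. Smooth muscle and pericyte markers were lower for 2 of 10, Acta2 and Rgs5, with sums of 166 to 185 in WT and 121 to 164 in mKO. Acta2 was called in 5 and Rgs5 in 4 of the 11 fits, and neither on unscaled TPM. These shifts ran beside the mitochondrial falls, with MKO_3251 the highest mKO library in the endothelial sum, and their part in those falls was not tested.

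Of 8 adipocyte markers tested 1 was called, Car3, which muscle fibres also make in quantity, and Ucp1 was at 0 in all 11 libraries. Scx, a tendon factor, was the member called of 7 tendon markers (0.68 ± 0.16, limma adjusted p = 0.0102). No macrophage (13 tested), satellite cell (7), Schwann cell (5), fibro-adipogenic (10), neutrophil (2) or red blood cell (5) marker was called (limma), and of 10 lymphocyte markers none was abundant enough to be tested, with sums of 0.54 to 1.26 scaled TPM over the 11 libraries. Red blood cell markers summed to 341 to 513 in WT, 332 to 408 in 4 mKO libraries and 1020 in MKO_3259.

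The same contrast at 24 months, with 6 libraries in each group and none shared, gave 1292 higher (10.4%) and 1517 lower (12.2%) genes. The effect differed between the ages for 541 genes (4.36%), of which 307 (2.48%) were higher in the 24-month contrast and 234 (1.89%) lower. Nuclear respiratory chain genes were lower at 24 months for 77 of 82, with a median of -0.64 beside -0.19 at 3 months, and the difference between the ages was called below 0 for 9 of the 82 and above 0 for none. The 3-month value depended on MKO_3259, without which the median was -0.35 and 29 were lower. The tricarboxylic acid list had 18 of 27 lower with a median of -0.33, as at 3 months. There Ogdh, a subunit of oxoglutarate dehydrogenase, was the member whose effect differed, at -0.51 ± 0.10 at 3 and 0.16 ± 0.10 at 24 months (interaction in limma, adjusted p = 0.00622). The mitochondrial ribosome had 40 of 80 lower at 24 months, and for 1 gene the difference between the ages was called. At 3 months 0 of the 80 were lower, or 8 without MKO_3259.

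Kcng4 (-1.44), Aspa (-1.21) and Esrra (-0.91) were also called at 24 months. The differences between the ages were -0.02 ± 0.23, 0.00 ± 0.19 and -0.13 ± 0.17, none of them called (limma, adjusted p of 0.665 or more). Car3 rose by 2.04 ± 0.15 at 24 months, a difference of 0.57 ± 0.22 that was not called (limma, adjusted p = 0.117). Of the 12 largest falls 5, and of the 12 largest rises 6, were called in the same direction at 24 months, and 0 in the opposite one.

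Several 3-month changes differed at 24 months in the interaction test. The genes below were picked for their 3-month values, which enter that test. A smaller value at 24 months was thus favoured in advance. Dynlt1b stood at -0.24 ± 0.09 at 24 months, a difference of -1.29 ± 0.14 (interaction in limma, adjusted p = 7.19e-07). Rab4a stood at -0.15 ± 0.13 (-0.94 ± 0.19, interaction in limma, adjusted p = 0.00566), Nsun4 at 0.03 ± 0.13 (0.82 ± 0.19, interaction in limma, adjusted p = 0.0154) and Efcab6 at -0.13 ± 0.16 (0.80 ± 0.24, interaction in limma, adjusted p = 0.0491). Perm1 was -0.05 ± 0.10 at 24 months, against -0.55 at 3 (interaction in limma, adjusted p = 0.0356).

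Other genes were called at 24 months and moved less, or the other way, at 3. Those named here were picked for their small p in the interaction test. Ubr4, a large ubiquitin ligase, was 0.00 at 3 and 0.97 at 24 months (interaction in limma, adjusted p = 0.000223), and Gcnt2, a glycan-branching enzyme, 0.12 and 0.87 (interaction in limma, adjusted p = 0.000434). Wfs1, a protein of the endoplasmic reticulum, was lower at 3 months (-0.46 ± 0.12, limma adjusted p = 0.0161) and higher at 24 (0.50 ± 0.11, limma adjusted p = 0.00137). Its 3-month call was lost in 10 of 26 alternatives, among them without WT_4, without MKO_3259 and on unscaled TPM. The fits of 17 and of 11 libraries lost it too. The number of such age differences depended on single libraries. It was 186 above 0 and 114 below 0 without WT_2, 145 below 0 without WT_4, 481 and 451 without MKO_3248, and 131 below 0 without MKO_3259. On unscaled TPM it was 2996 above 0 and 108 below 0.

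**Figure D5:**
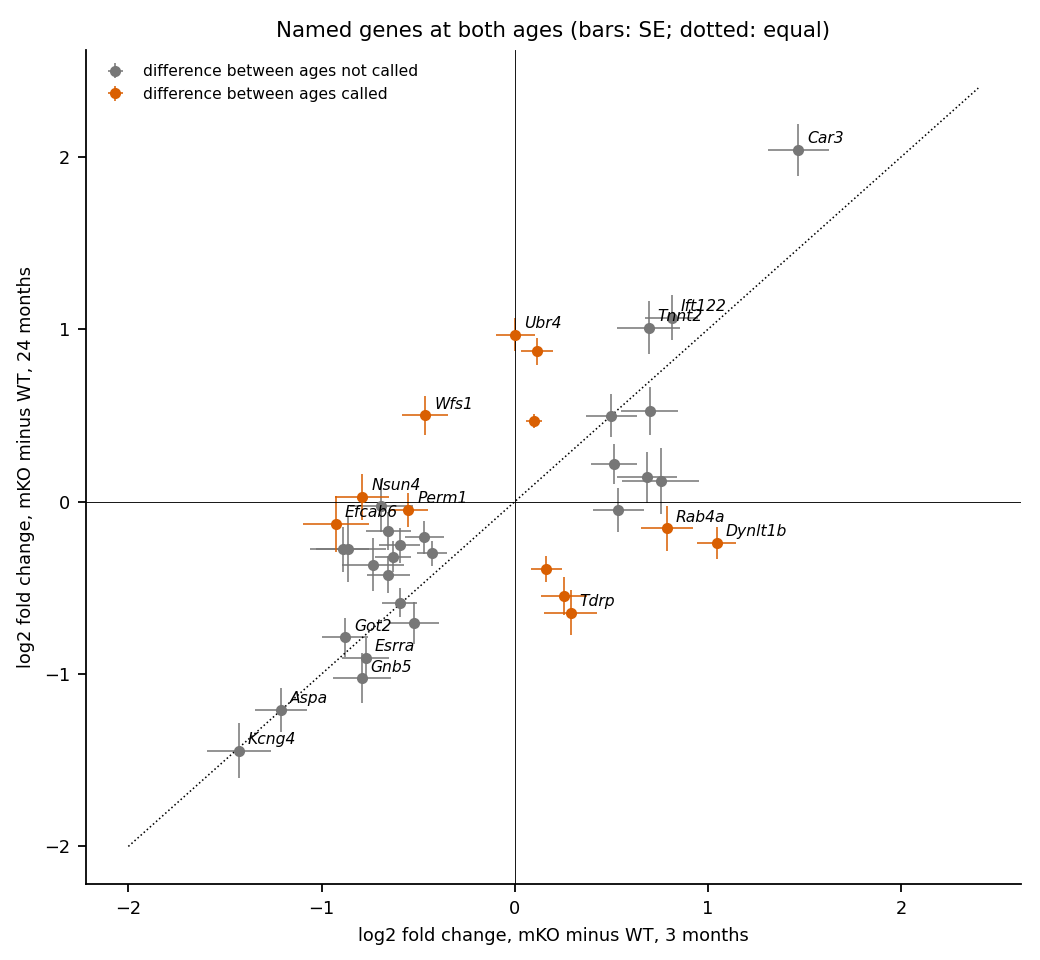
Log2 fold change of 38 named genes in mKO against WT at 3 months (x) and at 24 months (y), with SE bars and a dotted line of equal change; orange marks the 12 genes whose effect differed between the ages in limma's interaction test. Kcng4 and Aspa lie on the line, and Dynlt1b and Rab4a are high at 3 months alone. Some of the 38 genes were picked for a small p in that same test, which raised the number marked. Over all genes 4.36% differed.

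In mTG muscle at 3 months, compared with the same 6 WT libraries, Kcng4 stood at 2.36 ± 0.16, Aspa at 1.54 ± 0.13, Esrra at 1.43 ± 0.11 and Perm1 at 1.099 ± 0.10 (limma, adjusted p = 5.79e-14, 9.20e-12, 4.43e-12 and 3.33e-11). Car3 stood at -2.30 ± 0.15 (limma, adjusted p = 4.36e-14). Dynlt1b was higher there too, at 0.62 ± 0.09, and Rab4a was at 0.02 ± 0.13 (limma, adjusted p = 1.82e-06 and 0.902). These values share their WT libraries with the mKO comparison, so they are set beside it and no agreement is counted.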

How the data were processed

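RNA-seq of 35 gastrocnemius samples used the Illumina TruSeq RNA kit, per the labels' protocols. Values were deposited as TPM for 54416 gene IDs. Per the submitters' processing notes, the authors used cutadapt 1.16, Salmon 1.1.0 and edgeR with build GRCm38, the role of each not given, and the annotation and the summing of transcripts to genes are not given in the sources used here. TPM keep no read counts, so depth and its precision are unknown. Symbols and positions came from a GRCm38 annotation, which lacked 253 of the IDs. Column names carry no age, so groups were inferred as stated in the results. No column was left out.

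A gene was tested where 5 or more of the 35 columns reached 1 TPM, which left 12399. Median-of-ratios scale factors over these genes divided the TPM, and log2(scaled TPM + 1) was fitted in limma 3.58.1 (R 4.3.3) using 1 mean for each of 6 groups over all 35 libraries, a mean-variance trend, and Benjamini-Hochberg adjustment over the genes of a comparison. Single values per library were compared by exact 2-sided permutation. The pipeline was tested on simulated data. The scores by library are means over a list's members. The trend on transcript length was a lowess curve per library with span 0.3.

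The named genes were Ppargc1a, the PGC-1 list, the 12 largest rises and falls among called protein-coding nuclear genes whose mean reached 5 TPM in either group and whose groups did not overlap, without predicted gene models, the 4 smallest p in each list, and 5 per direction for the difference between ages; further called members of a list were named after their values were seen. A few genes within these rules are not reported here by name, and counts over lists include them. The comparison and the 41 lists were chosen with earlier results of these data known. Alternatives covered scaling, pseudocount, filter, the libraries in the fit, array weights, transcript length, a fold minimum and leaving out each library. Those combining settings or leaving out MKO_3259 from the 11 libraries, or MKO_3251 and MKO_3259 together, were chosen after seeing the data.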

Additional observations from a re-analysis of the deposited data

Results flagged for a closer look

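For the largest rises and falls, Ppargc1a and the mitochondrial DNA and rRNA shares, each group of 5 or 6 libraries was checked for a library far from the rest by Dixon's criterion, 52 checks in all, and 6 stood out. Chance marks about 1 in 20 groups. On the log2(scaled TPM + 1) scale, Car3 was low in WT_4, at 9.34, with the other WT libraries from 9.67 to 9.76. It was also low in MKO_3251, at 10.2, with the other mKO libraries from 11.2 to 11.5. Aspa was high in MKO_3251, at 2.45, with the others from 1.31 to 1.61. Anapc4 was high in MKO_3259, at 5.13, with the others from 4.34 to 4.40. In WT, Rhbdl1 was low in WT_1, at 2.25, and Lyrm7 was low in WT_6, at 2.92.

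The mKO effect at 24 minus that at 3 months differed in limma's interaction test for 15 of the genes named. Some of these, up to 5 per direction, were named for their small p in this same test. Others were named for their 3-month values, which enter the difference. The count was thus raised by the selection, and over all genes 4.36% differed. Among the genes called at 3 months these were Dynlt1b (-1.29), Rab4a (-0.94), Efcab6 (0.80), Nsun4 (0.82), Wfs1 (0.96), Perm1 (0.50), Ogdh (0.66) and Atp5c1 (-0.42). The others were Ubr4 (0.97), Gcnt2 (0.76), Eif3c (0.37), Myh2 (1.0998), Dcn (-0.55), Tdrp (-0.93) and Rps7 (-0.80). Eif3c and Rps7 have close copies in the genome, among which reads may have been split.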

How the results depend on the processing

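No paired analysis was possible because the knockout columns carry no replicate numbers. Called higher and lower in mKO at 3 months were 377 and 227 genes on unscaled TPM, 13 and 12 in the 11 libraries with their own filter and scaling, 12 and 9 with the same genes and scaling, 91 and 195 in the 17 libraries of 3 months and 525 and 877 with array weights. They were 16 and 14 in the 11 libraries with the transcript length trend removed, 4 and 0 in the 11 without MKO_3259 (limma, 2160 at an unadjusted p under 0.05), and 52 and 83 at a fold of at least 1.5. Quantile normalization gave 369 higher and 483 lower, and 619 were lower without MKO_3251 and MKO_3259. Leaving out 1 library gave 123 to 462 higher and 249 to 690 lower. The share of called genes that were higher was 35.4%, or 62.4% unscaled, 52.0% and 57.1% in the 11 libraries with and without their own filter and scaling, and 53.3% in the 11 with the length trend removed. Removing that trend over all libraries gave 308 and 521. The differences between ages were 2996 above 0 and 108 below on unscaled TPM, 470 and 377 with quantile normalization, and 186 to 481 and 114 to 451 with 1 library left out. The mitochondrial DNA share differed by -5.41 to -2.30 percentage points with 1 library left out, past an unadjusted p of 0.05 without MKO_3251 (-5.41) or MKO_3265 (-4.99), and the log2 summed level by -0.32 (p = 0.039; exact permutation tests). The Ppargc1a difference ran from -0.23 to 0.09 with 1 library left out. Of the 101 genes named, the 84 called at 3 months kept their sign in every alternative run on them. A called gene can hardly change sign in fits that share most libraries, so this shows little. Calls themselves were often lost, in 546 checks of a named gene under an alternative. Txnrd1 lost its call in 19 of 26 alternatives, Hspd1 in 17 and Uqcrc1 in 13. Of the genes not called, Ppargc1a, Ppargc1b, Nrf1, Ubr4 and Tdrp changed sign in at least 1 alternative. Depth limits cannot be given for TPM.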
